A study of Mus musculus with 6 samples.

Results

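The GIMAP proteins (GTPases of the immunity-associated protein family) were followed in T cells of C57BL/6 mice that met donor antigen in culture. Members were taken by gene symbol from a list of 8, namely Gimap1, Gimap3, Gimap4, Gimap5, Gimap6, Gimap7, Gimap8 and Gimap9, and each gene was read from its brightest probe over the 6 arrays. Of these 8 genes, 7 had a named probe and 6 were detected, out of 10687 genes or unnamed probes compared, of which 8347 had a gene symbol. Gimap3 had no probe under its own name in the platform annotation and was not analysed here. Both probes of Gimap4 were not above background on any array, with the brighter at a signal of 181 to 206, so no level is given for it.

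Rejecting mice were male C57BL/6 recipients of full-thickness tail skin from BDF1 donors, a cross of C57BL/6 and DBA/2, and their T cells were taken on day 7 with no treatment given. Tolerant mice bore a graft of the same kind, had received a transfusion of donor cells and the anti-CD40L antibody MR-1, which blocks a costimulatory ligand on T cells, and gave T cells on day 100. Naive mice were healthy male C57BL/6 animals without a graft. T cells from spleen and lymph nodes of each kind of mouse spent 20 to 21 h together with donor spleen cells from which T cells had been removed, and CD3+ cells were sorted into a CD69+ fraction, enriched for cells that had responded, and a CD69- fraction. The sorting protocol in the labels names CD3+CD69+ cells for both sorts, so the fractions are taken from the sample titles and cell types. Each of the 6 combinations was measured on 1 Illumina MouseWG-6 array. How many mice went into a library is not given in the sources used here, and no combination was repeated. Errors below therefore describe how a difference varied between kinds of mice or between fractions, with variances moderated over all features.

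GIMAP proteins are small GTP-binding proteins of vertebrate lymphocytes, anchored on intracellular membranes or free in the cytosol, and they are best known for keeping resting T cells alive. Members bind GTP, form dimers with themselves or with each other, and have been linked to BCL-2 family proteins, to lysosomes and to autophagy. In mice and rats, loss of Gimap5 leads to a shortage of T cells, and loss of Gimap1 or Gimap6 in mice reduces mature lymphocytes. The genes lie side by side, and in the mouse annotation of GRCm38.p6 the protein-coding order on chromosome 6 is Gimap8, Gimap9, Gimap4, Gimap6, Gimap7, Gimap1, Gimap5 and Gimap3.

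Because the genes are adjacent and, as described below, most detected members moved together, the 250 bases before each annotated start were searched for sequence motifs of T cell transcription factors. All 8 genes matched the RefSeq promoter table of build GRCm38.p6, with 9 windows in all since Gimap8 has 2 starts. The windows of 4 genes are shown, Gimap9 and Gimap1 for the largest CD69 differences, Gimap7 for the motif it shares with Gimap1, and Gimap5 for the disagreement between its probes. They lie at chr6:48675885-48676134, chr6:48738797-48739046, chr6:48718371-48718620 and chr6:48745947-48746196, all on the plus strand. Capitals mark the KLF motif CCACCC in Gimap9 and its reverse complement in Gimap5, and the reverse complement of the RUNX motif TGTGGT in Gimap1 and Gimap7.
Gimap9: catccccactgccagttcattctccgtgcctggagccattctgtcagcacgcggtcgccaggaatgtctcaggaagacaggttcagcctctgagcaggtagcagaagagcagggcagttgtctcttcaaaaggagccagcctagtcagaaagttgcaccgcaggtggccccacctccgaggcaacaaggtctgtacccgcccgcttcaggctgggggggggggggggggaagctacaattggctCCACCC
Gimap1: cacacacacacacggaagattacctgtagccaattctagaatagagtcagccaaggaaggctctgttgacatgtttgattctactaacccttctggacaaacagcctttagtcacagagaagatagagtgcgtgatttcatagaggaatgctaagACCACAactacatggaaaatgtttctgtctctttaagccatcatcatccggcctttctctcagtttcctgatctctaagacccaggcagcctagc
Gimap7: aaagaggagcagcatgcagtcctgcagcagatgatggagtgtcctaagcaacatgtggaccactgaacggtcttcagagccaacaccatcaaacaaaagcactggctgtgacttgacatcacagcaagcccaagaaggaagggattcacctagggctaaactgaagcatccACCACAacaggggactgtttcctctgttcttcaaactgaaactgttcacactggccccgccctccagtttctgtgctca
Gimap5: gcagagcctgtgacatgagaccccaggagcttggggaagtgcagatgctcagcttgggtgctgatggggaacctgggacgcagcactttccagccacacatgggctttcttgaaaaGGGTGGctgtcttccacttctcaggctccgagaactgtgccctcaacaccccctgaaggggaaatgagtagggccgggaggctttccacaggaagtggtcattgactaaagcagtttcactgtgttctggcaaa
The KLF letters stood in 5 of the 9 windows (Gimap3, Gimap4, Gimap5, Gimap8 in 1 of its 2 windows, and Gimap9), against 28.1% of 32841 mouse windows of the same length. They were absent before Gimap1, Gimap6 and Gimap7. The RUNX letters stood in 3 of the 9 windows, those of Gimap1, Gimap4 and Gimap7, against 14% of all windows. The FOXO letters GTAAACA occurred before Gimap3 (3.17% of all windows). The letters used for TCF/LEF (CTTTGA, 13.8% of all windows), ETS (CCGGAAG, 6.91%), RBPJ (GTGGGAA, 5.41%), GATA factors (letters AGATAA, 9.99%) and NF-kappaB (0.14%) were in none of the 9 windows. Both strands were searched, no 2 matches overlapped, and a match describes the letters alone. By base composition the windows held 43.6% to 61.2% G and C, around the median of 52.4% over all windows, and 1 to 8 CpG dinucleotides, against a median of 6.

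The first comparison asks how the family differed between cells sorted as CD69+ and cells sorted as CD69- after the coculture. Of the 6 detected Gimap genes, 5 fell in CD69+ cells and none rose at an adjusted p of 0.05 (limma, kind of mouse as a block, 3 pairs of libraries). Over all 10687 features 33.1% were called lower in the same fit, 29.6% higher and 62.7% either way. The 5 genes were Gimap9, Gimap1, Gimap6, Gimap7 and Gimap8, by 1.64-fold to 2.60-fold, and Gimap9, Gimap1 and Gimap6 fell at least 2-fold, as did 14.3% of all features. In the same 5 genes the 3 CD69+ libraries all lay below the 3 CD69- libraries, which held for 35.5% of all features, and in none did they all lie above, against 33.0%. The median difference was -0.90 on the log2 scale for the 6 members, against -0.05 for all features. Gimap5 was the exception when read from its brightest probe. In such bulk libraries fewer cells of a type and less RNA per cell cannot be told apart. Each array took 0.55 µg of RNA and levels were quantile normalized. A fall is therefore relative to the other RNA of a library, and amounts per cell were not measured.

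**Figure D1:**
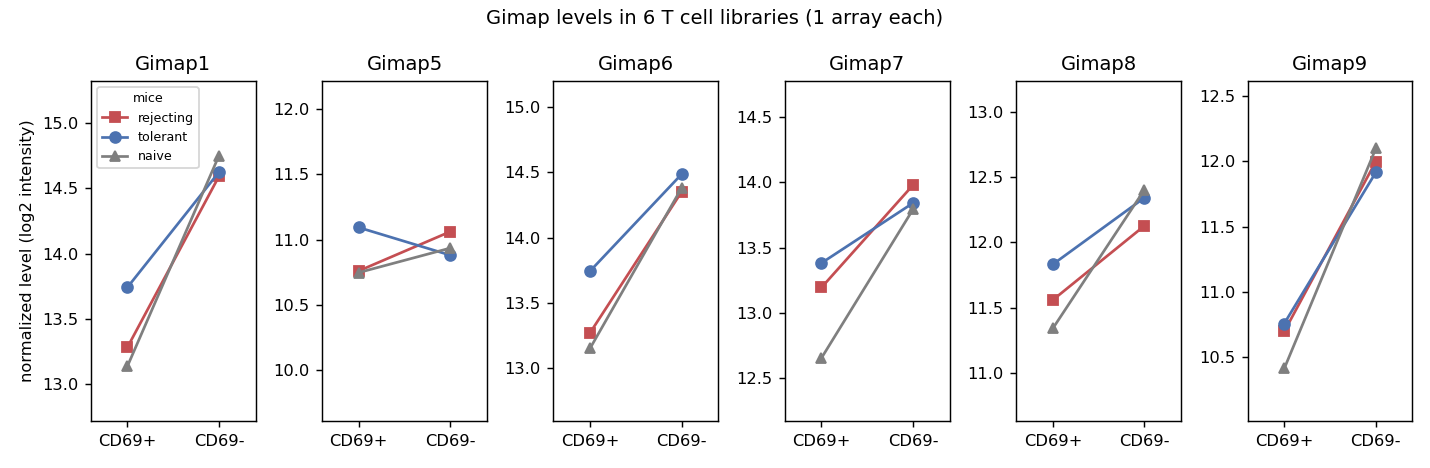
Normalized log2 level of each detected Gimap gene (vertical axis) in the CD69+ and CD69- libraries (horizontal axis), with a line for each kind of mouse and 1 array per point. Each panel spans the same log2 range, centred on that gene's mean. The 3 CD69+ points lie below the 3 CD69- points for every gene shown apart from Gimap5.

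Gimap9, which lies between Gimap8 and Gimap4, stood at log2 levels of 10.70, 10.76 and 10.41 in the rejecting, tolerant and naive CD69+ libraries, against 12.00, 11.91 and 12.10 in the CD69- libraries of the same mice. The groups did not overlap, and each CD69+ library was more than 1 log2 unit below its partner. Gimap9 was thus 2.60-fold lower in CD69+ cells (log2 difference -1.38, SE 0.14, limma adjusted p = 0.00173, n = 3 pairs), and 7.00% of all features differed by a more negative value.

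Gimap1, which mature T and B cells need in mice, was read from a probe at 13.28, 13.74 and 13.14 in the rejecting, tolerant and naive CD69+ libraries, against 14.59, 14.62 and 14.75 in the CD69- libraries. The CD69+ libraries were again lower without overlap, and the tolerant one was the highest of the 3. The mean difference was -1.27 (SE 0.17, limma adjusted p = 0.00321), a 2.41-fold fall. A dimmer probe of Gimap1 gave a 2.71-fold fall, with a log2 difference of -1.44 (SE 0.18, limma adjusted p = 0.00224 with each of 15298 probes on its own).

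Gimap6, whose product binds the ATG8 protein GABARAPL2 and takes part in autophagy, stood at 13.27, 13.74 and 13.15 in the rejecting, tolerant and naive CD69+ libraries, against 14.35, 14.49 and 14.38 in the CD69- libraries. The CD69- values were close together, with an SD of 0.07, and the CD69+ values were more spread, with an SD of 0.31, the tolerant library again being the highest. Gimap6 fell 2.02-fold (log2 -1.02, SE 0.14, limma adjusted p = 0.00331).

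Gimap7, whose human counterpart stimulates the GTPase activity of another family member when they pair, stood at 13.19, 13.38 and 12.66 in the rejecting, tolerant and naive CD69+ libraries, against 13.98, 13.84 and 13.79 in the CD69- libraries. The naive CD69+ library was the lowest by over 0.5 log2 units. The fall was 1.73-fold (log2 -0.79, SE 0.16, limma adjusted p = 0.0112), and without the rejecting pair its adjusted p was 0.0526. Gimap8, which carries repeated GTPase domains, stood at 11.56, 11.83 and 11.34 in the rejecting, tolerant and naive CD69+ libraries, against 12.13, 12.34 and 12.40 in the CD69- libraries. Its fall of 1.64-fold (log2 -0.71, SE 0.15, limma adjusted p = 0.0129) was the smallest of the 5 called, and the adjusted p was 0.0502 without the naive pair and 0.0686 with array medians centred. Its other 2 probes were not above background on any array.

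Gimap5, the survival factor of resting T cells, gave different answers from its 2 detected probes, both annotated to the same transcript. The brighter probe stood at 10.76, 11.09 and 10.75 in the rejecting, tolerant and naive CD69+ libraries, against 11.06, 10.88 and 10.93 in the CD69- libraries. These groups overlapped, and the tolerant CD69+ library was the highest of all 6. The difference was -0.09 (SE 0.14, 95% interval -0.47 to 0.28, limma adjusted p = 0.604), and its sign turned with array medians centred (0.11) and without the rejecting pair (0.01). The dimmer probe stood at 9.09, 9.43 and 8.99 in the rejecting, tolerant and naive CD69+ libraries, against 10.36, 10.20 and 10.25 in the CD69- libraries, with no overlap. By this probe Gimap5 fell 2.15-fold (log2 -1.10, SE 0.15, limma adjusted p = 0.00268), within the range of the 5 genes above. The probes parted in the same way before normalization, where the signal of the brighter was 1989, 2628 and 1998 in the rejecting, tolerant and naive CD69+ libraries, against 1877, 1808 and 2094 in the CD69- libraries, and that of the dimmer 717, 946 and 676, against 1213, 1218 and 1377.

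The gap between the Gimap5 probes was nearly the same in each pair. The brighter probe exceeded the dimmer in its CD69 difference by 0.97, 0.99 and 1.07 log2 units in the rejecting, tolerant and naive pairs, a mean of 1.01 ± 0.05 (SD, n = 3). An exact sign-flip test gave a two-sided p = 0.25, which is the smallest that 3 pairs allow. Among 3177 genes with at least 2 detected probes, the 2 brightest differed by this much or more in 7.84%, and the median gap was 0.17 log2 units, the value also found between the 2 Gimap1 probes. Probe sequences were not used here, and the cause of the gap was not tested.

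**Figure D2:**
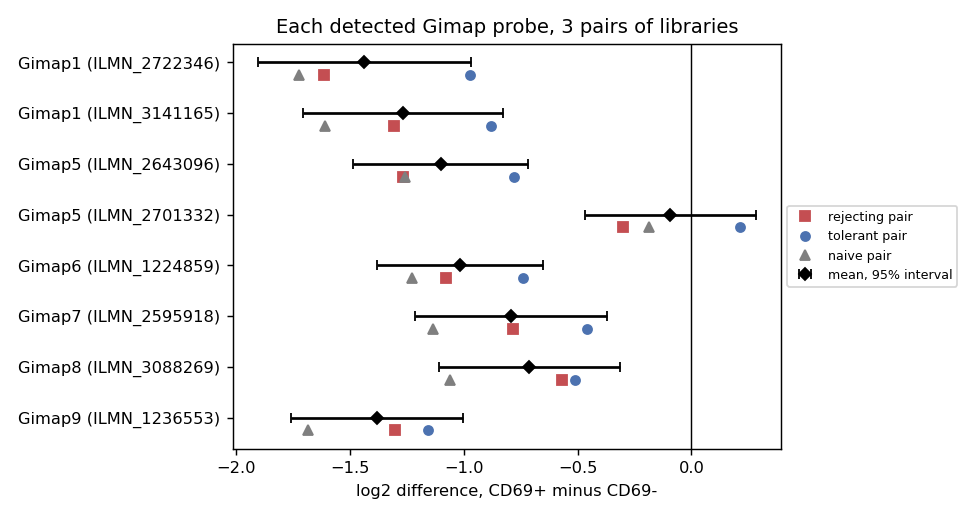
Log2 difference between CD69+ and CD69- libraries (horizontal axis) for each of the 8 detected Gimap probes (vertical axis). Black diamonds are means with 95% intervals from limma and coloured points are the 3 pairs. Of the 8 intervals 7 lie below 0, and the interval of the brighter Gimap5 probe, ILMN_2701332, spans 0.

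The 3 pairs of libraries stood in much the same order at each member. Counting genes at least 1.5-fold lower in CD69+ cells whose brighter library had a signal of 500 or more, there were 4 of 6 in the rejecting pair, 3 in the tolerant pair and 5 in the naive pair, against 18.4%, 17.1% and 21.0% of all features. None was 1.5-fold higher in any pair, where 18.4%, 16.6% and 19.6% of all features were. The member median was -0.93 in the rejecting pair, -0.63 in the tolerant pair and -1.18 in the naive pair. For each of the 6 genes the tolerant pair had the least negative difference, and for each of the 5 called genes the naive pair had the most negative one. Gimap7, for example, differed by -0.78 in the rejecting pair, -0.46 in the tolerant pair and -1.14 in the naive pair. The same was true of many other genes, since among the 3533 features called lower in CD69+ cells the tolerant pair was the least lowered in 2119 and the naive pair the most lowered in 2109. With 1 array per combination, whether the fall differs between kinds of mice cannot be tested.

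The second comparison asks whether the kind of mouse left a mark on the family in both fractions. No Gimap gene passed in any of the 3 contrasts by limma with fraction as a block, and none had an unadjusted p under 0.05. The percentages of all features called higher were 0% for rejecting against naive, 0.00936% for tolerant against naive and 0.00936% for rejecting against tolerant, with 0%, 0% and 0.00936% called lower, and 0.0187% either way in the last. At an unadjusted p under 0.05 the shares were 4.74%, 12.1% and 14.3%. The member medians were 0.06 for rejecting against naive, 0.23 for tolerant against naive and -0.16 for rejecting against tolerant, with all-feature medians of -0.01, 0.01 and -0.01. The widest positive value was that of Gimap7 for tolerant against naive, 0.39 (SE 0.20, 95% interval -0.13 to 0.91, limma adjusted p = 0.442, 2 libraries each). For Gimap1 the tolerant against naive interval ran from -0.30 to 0.78 around 0.24, so the interval takes in differences of more than 1.5-fold. The 3 contrasts share libraries and are not independent.

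Within the CD69+ fraction the values separated further, as differences between 2 single libraries that carry no test. The tolerant library exceeded the naive one at all 6 genes, by a median of 0.54 log2 units, and 3 genes, Gimap7 (1.65-fold), Gimap1 (1.52-fold) and Gimap6 (1.51-fold), were at least 1.5-fold higher, where 8.92% of all features were and 6.29% were lower. With array medians centred 1 of the 6 genes reached that fold. Gimap8, Gimap5 and Gimap9 were higher by 0.49, 0.35 and 0.34 log2 units, which fell short of that fold. The rejecting library lay between the others for each of the 6 genes. It differed from naive by 0.01 for Gimap5 and 0.54 for Gimap7, with a median of 0.18, and from tolerant by -0.47 for Gimap6 and -0.06 for Gimap9, with a median of -0.30. No gene reached 1.5-fold in either, while 1.67% of all features were higher and 0.374% lower against naive, and 4.76% higher and 6.52% lower against tolerant. The order tolerant above rejecting above naive held for 6 of 6 members and for 25.2% of all features. Its share among the features called lower in CD69+ cells, to which most members belong, was not computed. For the resting T cell genes read below, the median CD69+ differences had the same signs as those of the members. The order tolerant above rejecting above naive held for 6 of 6 members with array medians centred too, against 31.9% of all features. The authors' values, no background correction and a larger offset also gave 6 of 6, with the same 25.2% of all features. These 3 scalings keep the ranks within each array and match quantiles, so they are no separate check of the order.

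Within the CD69- fraction no such order appeared. None of the 6 genes had the order seen in CD69+ cells, and no gene was 1.5-fold apart between any 2 libraries. Of all features, 1.22% were at least 1.5-fold higher and 0.711% lower between the rejecting and the naive library, 0.683% and 1.54% between the tolerant and the naive library, and 2.70% and 2.26% between the rejecting and the tolerant library. The farthest apart was Gimap8, at -0.28 for rejecting minus naive. With array medians centred this difference was -0.47. Per gene the tolerant and naive CD69+ libraries were 0.34 to 0.73 log2 units apart.

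**Figure D3:**
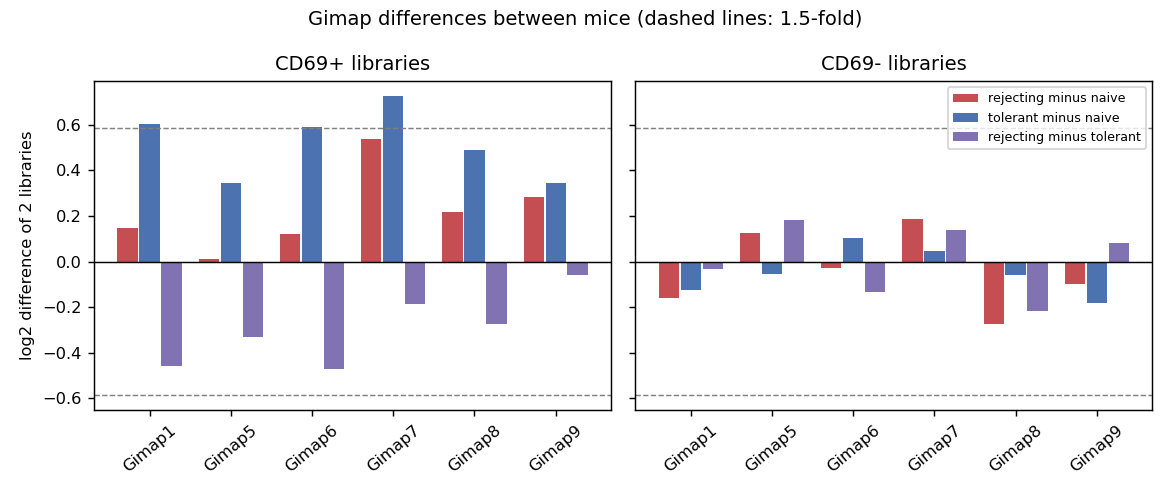
Log2 difference between 2 single libraries (vertical axis) for each detected Gimap gene (horizontal axis), in CD69+ libraries on the left and CD69- libraries on the right. Dashed lines mark 1.5-fold in either direction, which Gimap1, Gimap6 and Gimap7 pass for tolerant minus naive in CD69+ cells, and no bar passes among the CD69- libraries.

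Markers of T cells and of other cells were read in the same libraries. Of 18 listed T cell markers 13 were measured, 7 fell in CD69+ cells and none rose, with a median of -0.39. Without the naive or the rejecting pair 4 fell, and under 7 other settings 1 to 3 rose. The T cell receptor complex genes Cd247 and Cd3d differed by -1.06 and -0.79, and Cd8b1 by -0.83, while Cd6, Thy1 and Zap70 differed by 0.33, 0.33 and 0.32 (limma adjusted p = 0.0875, 0.0596 and 0.0767). Cd5 was among the 7, but it was not above background in any CD69+ library, so its size is not given. The summed signal of the 14 markers with a probe, here and below counting those not above background, was 206052 to 238764 in CD69+ libraries and 216965 to 269490 in CD69- libraries. The sort marker Cd69 rose 2.88-fold (limma adjusted p = 0.00343).

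Of the markers of other cells, 2 of 12 listed B cell genes (Cd79b and Blk) were measured, and 8 more with a probe, Ms4a1 and Pax5 among them, were not above background. Blk rose by 2.32 (limma adjusted p = 0.00191, detected on 5 of 6 arrays), and Cd79b differed by -0.54 (adjusted p = 0.0707). The 10 genes with a probe summed to 2190 to 3877 in CD69+ and 2087 to 2646 in CD69- libraries. For plasma cells 2 of 7 genes were measured, and the 6 with a probe summed to 15052 to 16694 in CD69+ and 5465 to 6892 in CD69- libraries. The other 4 with a probe, Jchain, Sdc1, Prdm1 and Tnfrsf17, were not above background. Xbp1 made up most of the sum, at log2 levels of 13.48 to 13.74 in CD69+ libraries against 7.54 to 11.44 for Mzb1. For class II antigen presentation 7 of 10 were measured, and all 10 summed to 10467 to 15702 in CD69+ and 12378 to 23111 in CD69- libraries. Of these 7, H2-DMa had the highest level in every library, so the sum leans on that gene. Of 12 myeloid genes only Fcer1g was measured, in 1 CD69+ and 2 CD69- libraries, and all 12 summed to 1827 to 2246 in CD69+ and 1892 to 2053 in CD69- libraries. For natural killer cells 8 of 12 genes were measured, and the 11 with a probe summed to 22054 to 23954 in CD69+ and 15884 to 20713 in CD69- libraries. For erythroid cells 3 of 10 were measured, and the 6 with a probe summed to 2346 to 6724 in CD69+ and 3315 to 37793 in CD69- libraries. Of these lists 1 plasma cell gene rose (Xbp1), 2 class II genes rose and 2 fell, 4 natural killer genes rose and 2 fell, and 3 erythroid genes fell. The class II genes Cd74 and H2-Eb1 rose by 2.37 and 1.59 on the log2 scale, while H2-Ob and H2-DMa differed by -2.85 and -1.23. Without the rejecting pair 1 class II gene rose, and with no replicate block 0 erythroid genes fell. Defining myeloid markers such as Lyz2, Csf1r and Itgam were not above background. Gimap levels were higher in the tolerant than in the naive CD69+ library. Between these 2 libraries the median difference was 0.07 for T cell markers, 0.89 for class II, 0.50 for natural killer and -2.14 for erythroid genes. It was 1.24 for B cell and 1.92 for plasma cell genes, each from 2 genes. These were Cd79b (1.19) and Blk (1.29), and Mzb1 (3.89) and Xbp1 (-0.06). The 1 myeloid gene measured, Fcer1g, differed by 1.54. The T cell markers were spread around their median, which counts Cd5. Leaving Cd5 out, they ran from -0.08 for Cd6 to 0.72 for Cd3d, with Cd3g at 0.61, Cd3e at 0.35 and Cd247 at -0.05. The part of these cells in the Gimap differences was not tested.

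Neighbouring genes on chromosome 6 did not share the fall of the Gimap genes as a block. On one side of the cluster Tmem176b and Tmem176a, membrane proteins of immune cells, rose in CD69+ cells by 5.87-fold (log2 2.55, SE 0.20, limma adjusted p = 0.00109) and by a log2 difference of 2.29 (SE 0.31, adjusted p = 0.0033). Tmem176a was detected in 3 CD69+ libraries and 1 CD69- library. On the other side the zinc finger gene Repin1 rose 2.51-fold (adjusted p = 0.00296), and the chemerin gene Rarres2 fell by 0.96 on the log2 scale (adjusted p = 0.0207). Doxl2 differed by 0.47 (adjusted p = 0.218), and the nearest gene on the Gimap8 side, Zfp775, was not above background. In a wider list of 18 genes, not all of them placed on chromosome 6 here, 9 were measured. Of these 4 rose and 4 fell, or 2 fell without the naive or the rejecting pair. Besides Rarres2, Zfp212 fell by 1.32 and Zfp956 by 0.63 on the log2 scale (limma adjusted p = 0.00151 and 0.0115). The called genes of that list also included Atg9b, not above background in CD69- libraries, and Kcnh2, not above background in CD69+ libraries. Both are given without a size, and neither was placed on chromosome 6 here.

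**Figure D4:**
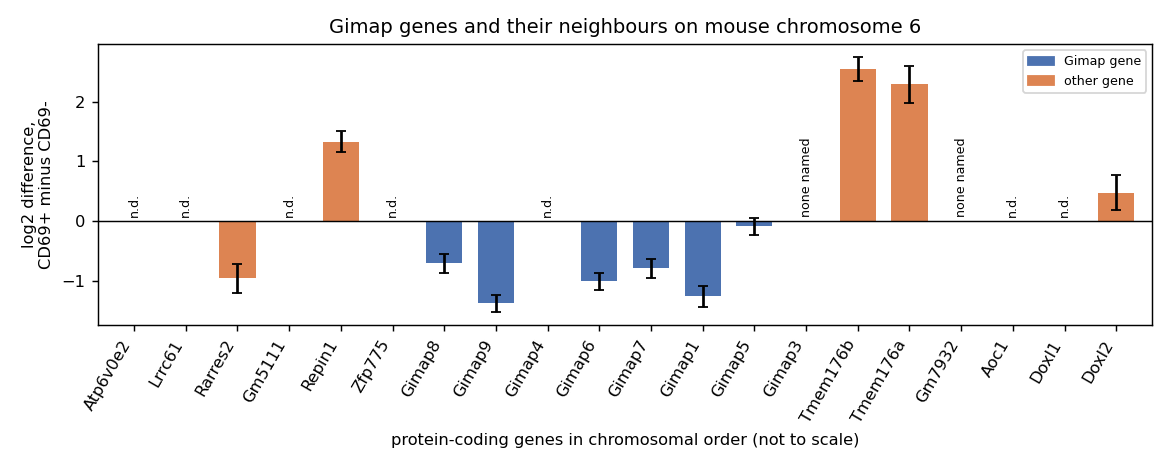
Log2 difference between CD69+ and CD69- cells with its SE (vertical axis) for the protein-coding genes around the Gimap cluster, in chromosomal order (horizontal axis). Blue bars are Gimap genes and orange bars other genes; "n.d." marks genes not above background on any array and "none named" genes without a named probe. The detected Gimap bars lie below 0, that of Gimap5 with an error bar that crosses it, between a rise of Repin1 and rises of Tmem176b and Tmem176a.

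Genes whose products have been tied to GIMAP proteins were read next. Of 10 measured BCL-2 family genes 5 rose and 3 fell in CD69+ cells, with a median of 0.32. The survival gene Bcl2l1, detected in 3 CD69+ libraries and 1 CD69- library, rose by 4.56 and Bcl2a1b by 2.42 on the log2 scale, while the death-promoting Bbc3 and the survival gene Mcl1 differed by -2.49 and -1.42. Bcl2, whose product binds GIMAP proteins in mouse cells, differed by 0.04 (limma adjusted p = 0.895).

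Among the ATG8 proteins, which coat autophagosomes and one of which binds Gimap6, 3 of 4 measured genes fell and 1 rose. Map1lc3b differed by -1.58, Gabarap by -0.85 and Map1lc3a by -0.79 (limma adjusted p = 0.0487, detected in 2 CD69+ libraries and 3 CD69- libraries), and Gabarapl1 rose by 1.09. Gabarapl2 itself was not above background. Of 11 measured genes around Gimap5 function 5 fell and 1 rose. The kinase gene Gsk3b differed by -0.93, Foxo3 by -0.87, Foxo1, also in the next list, by -0.86 and Nfatc1 by -0.54, and the lysosomal membrane gene Lamp1 by -0.21 (limma adjusted p = 0.213). Mtor rose by 0.33 (adjusted p = 0.0474), and no gene rose once any pair was left out. Without the naive or the rejecting pair 3 of these 11 fell.

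Of 17 measured genes of resting T cells 16 fell and none rose, with a median of -2.29, more than the member median of -0.90. The furthest falls were those of Pik3ip1, Il7r, Cdkn1b and Tsc22d3, between -3.39 and -2.89. Within CD69+ cells their list had a median difference of 0.66 for tolerant minus naive, 0.39 for rejecting minus naive and -0.45 for rejecting minus tolerant. The member medians were 0.54, 0.18 and -0.30. The shares called lower, 83.3% of the Gimap genes and 16 of 17 here, stand beside 33.1% of all features.

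The named genes whose centred profile over the 6 libraries lay nearest to the mean Gimap profile were found by root mean square difference. They were Mlycd, the malonyl-CoA decarboxylase gene (0.039 log2 units), Gabarap (0.041), Zbtb24 (0.047), Mat2b (0.049), Plcl2 (0.049), C87436 (0.051), Pdpr (0.052), Specc1l (0.053), Itm2b (0.053) and Grcc10 (0.057). Single members lay 0.098 (Gimap6) to 0.402 (Gimap5) from their own mean. Pearson's r of these 10 with the mean profile was 0.993 (Itm2b) to 0.998 (Mlycd) over 6 libraries that share 3 cultures, and 3381 of 8347 named genes reached the lowest r of a member, 0.577 for Gimap5, so reaching that r is common.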

How the data were processed

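Each of 6 T cell samples was hybridised to 1 single-colour Illumina MouseWG-6 BeadChip using 0.55 µg of RNA, according to the labels. The deposited table holds, per the file headers, the non-normalized signal intensity of 45281 probes and a detection p-value for each probe and array (GenomeStudio 2009.2, per the submitters' processing notes). A second deposited table holds the authors' processed intensities, which are linear and quantile normalized, by a method not stated. Array medians ran from 161.5 to 174.2 and 12669 to 13469 probes were detected (detection p under 0.01). The number of arrays limits the precision. Neither slide nor scan date is given in the sources used here.

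Log2 levels were made with limma 3.58.1 in R 4.3.3: normexp with negative controls inferred from detection p-values, offset 16, then quantiles. Probes were named from the platform annotation through RefSeq gene IDs (34885 with 1 symbol, 18 with several, 10378 with none, and 34807 matched in RefSeq). Each gene was read from its brightest probe detected on at least 1 array. CD69+ was compared with CD69- with kind of mouse as a block, since both fractions came from the same culture, and kinds of mice were compared with fraction as a block. Each fit used lmFit and eBayes over all 10687 features with 2 residual degrees of freedom, 2-sided Benjamini-Hochberg adjustment at 0.05. In eBayes each variance was moderated by that of all features, with 2.833 prior degrees of freedom. The resulting p-values measure only the spread between these samples, in part borrowed from other features. Single libraries were compared at 1.5-fold with a signal of at least 500, the values of the study's own candidate criteria. The fits were also run on simulated data with the same spread for every feature and no pair effect. Recovered there were 59 of 67 planted 1.5-fold, 67 of 67 planted 2-fold and 66 of 66 planted 4-fold differences, with 8 false calls. Real features differ in spread and far more were called, so this run does not give the error rate in these data. Named genes were all members, up to 4 genes of each list with the largest called differences, the neighbours of the cluster and the 10 nearest profiles; other markers and genes named beside them were chosen after their values were seen. A gene below background in every library of a fraction is named without a size. The members and lists were chosen with earlier results of these data known.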

Additional observations from a re-analysis of the deposited data

How the results depend on the processing

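The count of 5 Gimap genes lower in CD69+ cells was 4 with array medians centred, ran from 4 to 5 with each pair left out, and was 5 with no replicate block and under each other setting tried with 1 probe a gene. With every detected probe on its own, 7 of 8 probes were called, and 5 probes, rather than 3 genes, were at least 1.5-fold lower in the tolerant pair and 1 probe was so for rejecting minus tolerant in CD69+ cells. Gimap1, Gimap6 and Gimap9 passed in all settings run. Centring array medians moved the median of all features by 0.14 log2 units and the calls to 3626 higher and 2620 lower, against 3164 and 3533, with a member median of -0.71 against 0.09 for all features. It also turned the sign of Gimap5 between fractions (0.11), of Gimap5 (-0.0106) and Gimap6 (-0.0376) for rejecting against naive, and of Gimap9 (-0.0396) for rejecting against tolerant, none of them called; with each pair left out the Gimap5 difference ran from -0.244 to 0.0124. The Gimap genes at least 1.5-fold higher in tolerant than naive CD69+ cells numbered 3, but 1 with array medians centred and 0 at 2-fold. Over all features, rejecting against tolerant gave 2 calls, but 23 with the authors' value table or no background correction, 14 when detected on all 6 arrays, 87 with an intensity trend and robust variance, 13 with an offset of 50 and 0 with no replicate block. Tolerant against naive gave 1 call, but 6 with the intensity trend and 0 when detected on all 6 arrays or with no replicate block. Except where given, the cause was not tested. Genes below background, Gimap4 among them, have no level here.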

Other observations

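Of 11 measured lymphocyte GTPases and their regulators 5 fell in CD69+ cells and none rose, with a median of -0.40. The exchange factor gene Dock2 differed by -1.15, the T cell GTPase gene Rhoh by -0.82, Arhgef1 by -0.78 and Arhgdib by -0.67 (limma, each past an adjusted p of 0.05). Cdc42, a GTPase of cell shape, differed by less than 0.01 (adjusted p = 0.996). Without the rejecting pair 3 of the 11 fell.

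Notch signals act on T cell development, and of 6 measured genes of that pathway 4 fell in CD69+ cells, namely Notch1 (-1.05), Nrarp (-1.08), Maml1 (-1.08) and Dtx1 (-0.61). Rbpj rose, but it was not above background in any CD69- library, so its size is not given, and it was not called without the naive or the rejecting pair. The target gene Hes1 was not above background on any array.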
